A study of Mus musculus with 6 samples.

Results

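The genes of mitochondrial respiratory complex I were compared between PSCs kept at 1% O2 and PSCs kept at 21% O2. Members were the protein-coding genes of GENCODE release M21 with a symbol starting with Nduf or mt-Nd. They numbered 53 of the 55421 genes in the table: 36 nuclear-encoded subunits, 7 subunits encoded by mitochondrial DNA, 8 assembly factors with Ndufaf symbols, and the related genes Ndufa4 and Ndufa4l2. All 53 passed the filter on low counts. PSCs are fibroblast precursors of the pancreas, and these were primary cells from wild-type C57BL/6 mice, embedded in Matrigel in a transwell insert. In every sample, organoids of mT3, a mouse PDAC line derived from a KPC tumor, grew in the compartment below, so no sample held PSCs alone. For 48 h the cocultures stood at 21% O2 (normoxia, 3 samples) or at 1% O2 (hypoxia, 3 samples), and RNA of the PSCs was then sequenced. The labels do not say whether the 3 samples of a condition came from different mice, so the p-values measure the spread between these samples, which may be technical.

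Complex I is the entry point of the respiratory chain. Its peripheral arm oxidizes NADH (the N module) and passes the electrons over a row of iron-sulfur clusters to ubiquinone (the Q module), and its membrane arm (the P module) pumps protons. The catalytic core is shared with bacteria, and its membrane part is encoded in mitochondrial DNA. The other nuclear-encoded subunits are called accessory, and assembly factors help to build the complex without staying in it. Cells short of oxygen are known to lower respiration and to make more ATP by glycolysis.

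Library totals lay between 24749601 and 31925054 counts. CPM, which are counts scaled to a library of 1000000 counts after TMM scaling, is the scale of every level below unless a length is named. A gene was called lower or higher at a fold change over 1.5 with an adjusted p under 0.05 in edgeR's quasi-likelihood test with Benjamini-Hochberg adjustment over 16207 tested genes. One library stood apart for these genes. Normoxia replicate 2 held the highest of the 3 normoxic values for 45 of the 53 members, against 43.1% of all tested genes, and counts without it are given beside the main counts of the members and of each class. All 11 genes of a list of known hypoxia-induced genes were called higher at 1% O2, as were 18.9% of all tested genes. They ran from Lonp1, a mitochondrial protease, at a log2 fold change of 0.73 to Car9, a carbonic anhydrase, at 5.13. This list was chosen with earlier results of these data known, so its count is a description. Pdk1, the kinase that shuts pyruvate out of the citric acid cycle, rose from 106 to 301 CPM.

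Most complex I genes were lower in hypoxic PSCs. Of the 53 members, 32 were called lower and 1, Ndufa4l2, was called higher, while 15.3% of all tested genes were called lower and 18.9% higher. The median log2 fold change was -0.64 over the members and -0.004 over all tested genes. By the adjusted p at any fold, 49 members were lower (31% of all tested genes were) and 2 were higher (31.8% of all tested genes were), the second being Ndufv3. For 49 members every hypoxic sample lay below every normoxic sample, which held for 34% of all tested genes. For 2 members, Ndufa4l2 and Ndufv3, every hypoxic sample lay above (34.9% of all tested genes), and for the remaining 2, Ndufaf8 and Ndufaf3, the conditions overlapped. Without normoxia replicate 2, 27 members were called lower, and those lost were Ndufa1, Ndufa3, Ndufaf7, Ndufb10 and Ndufv1. At a fold over 2, 3 members were lower, against 7.57% of all tested genes, so the higher share of lower calls among the members was not seen at that limit. In PSCs sequenced in bulk, less RNA per cell and a smaller share of cells that express a gene cannot be told apart.

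**Figure D1:**
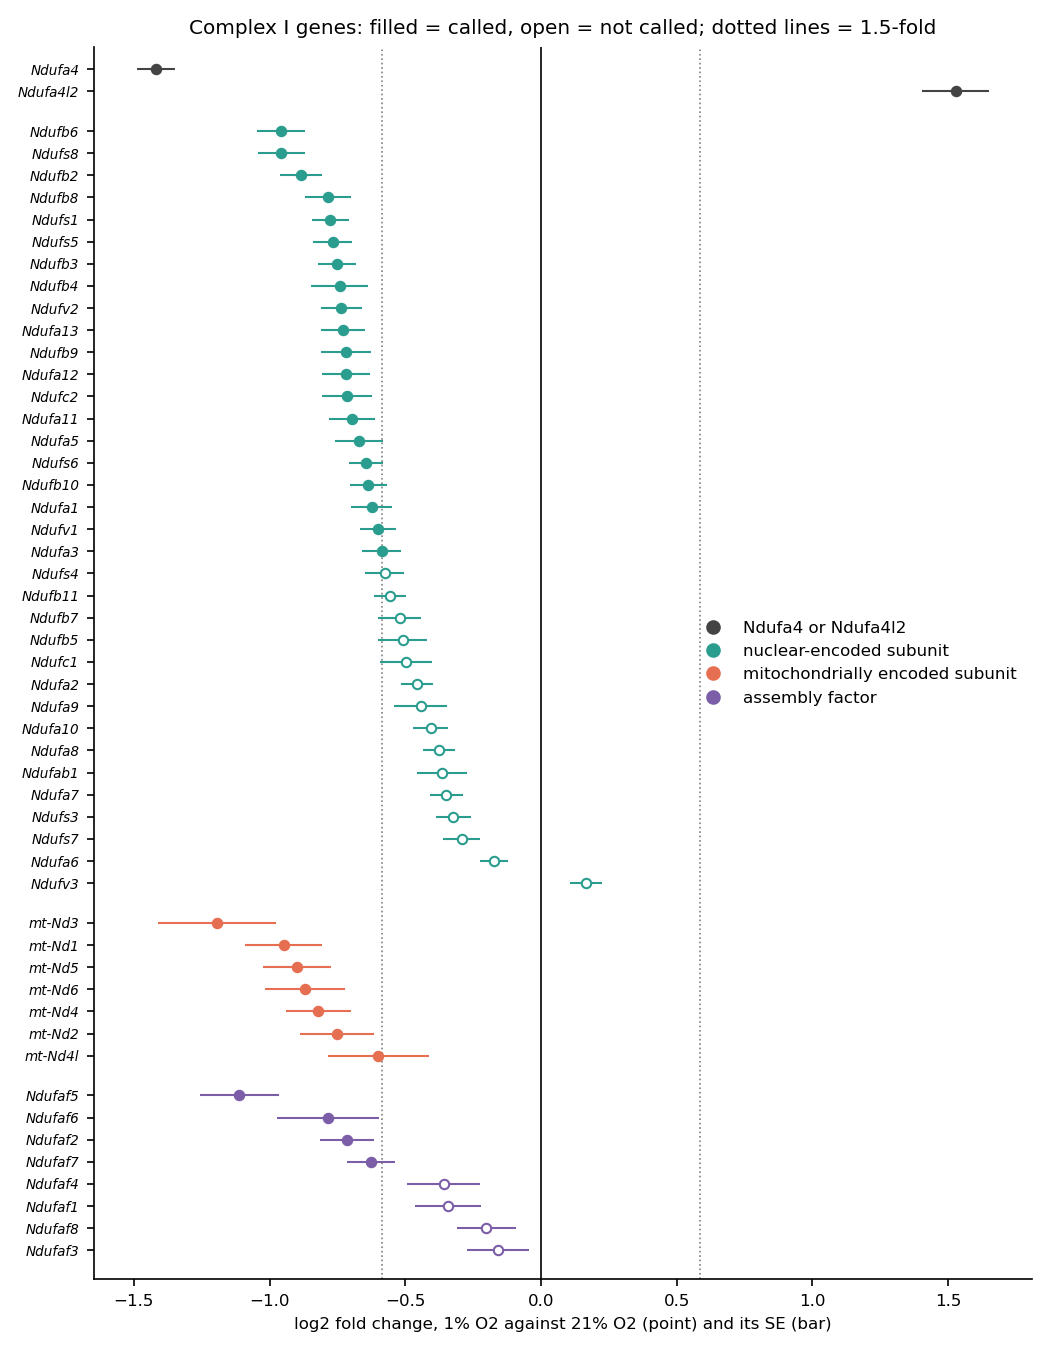
Log2 fold change of complex I genes at 1% O2 against 21% O2 (point, x axis) with its SE (bar), in blocks by class, where filled points were called, open points were not, and the dotted lines mark 1.5-fold. All points shown lie left of 0 except Ndufa4l2 at 1.53 and Ndufv3 at 0.16.

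The number of calls depended on exon length, which is the length of all annotated exons of a gene merged and not that of a single message. The median exon length of the nuclear-encoded subunits was 1644 bases, against 4462 bases over all tested protein-coding genes. With a smooth correction of each library for exon length, 15 members were called lower (13.2% of all tested genes) and the median of the members was -0.44, while 42 were lower by the adjusted p alone. Those that lost the adjusted p were Ndufa1, Ndufa2, Ndufa6, Ndufa8, Ndufaf1, Ndufs7 and mt-Nd4l. The 17 members that lost the call were Ndufa1, Ndufa3, Ndufa5, Ndufa11, Ndufa12, Ndufa13, Ndufb3, Ndufb9, Ndufb10, Ndufc2, Ndufs5, Ndufs6, Ndufv1, Ndufaf6, mt-Nd2, mt-Nd4l and mt-Nd6. Ndufa4, Ndufb2, Ndufb6, Ndufs1, Ndufs8 and Ndufaf5 were among those called lower with and without this correction. Across the 36 nuclear-encoded subunits, log2 fold change had a Spearman correlation of 0.22 with exon length, 0.24 with GC content and 0.26 with the normoxic CPM, a description over genes that share the same 6 libraries.

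Ndufa4 and Ndufa4l2 moved in opposite directions. Ndufa4 (ENSMUSG00000029632, GRCm38 chromosome 6, 11900292 to 11907497, minus strand) is named after complex I, but its protein is now counted as a subunit of cytochrome c oxidase, complex IV. Its relative Ndufa4l2 (ENSMUSG00000040280, chromosome 10, 127514967 to 127517154, plus strand) is a known target of hypoxia-inducible factors, reported to restrain complex I activity. Ndufa4 stood at 67.7, 76.4 and 65.7 CPM in normoxia replicates 1, 2 and 3 and at 26.9, 26.3 and 25.2 CPM in the hypoxic replicates. The hypoxic samples lay close together, far below the lowest normoxic one. The mean went from 69.9 ± 5.69 CPM (SD, n = 3) to 26.1 ± 0.827 CPM, a log2 fold change of -1.42 (SE 0.07, edgeR adjusted p = 4.69e-07), the lowest of all members. Ndufa4l2 stood at 88.6, 115 and 133 CPM in the normoxic samples and at 329, 327 and 313 CPM in the hypoxic samples. It was already above Ndufa4 in each normoxic sample, and the conditions did not overlap. The mean went from 112 ± 22.3 to 323 ± 8.70 CPM, a log2 fold change of 1.53 (SE 0.12, edgeR adjusted p = 8.94e-06).

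**Figure D2:**
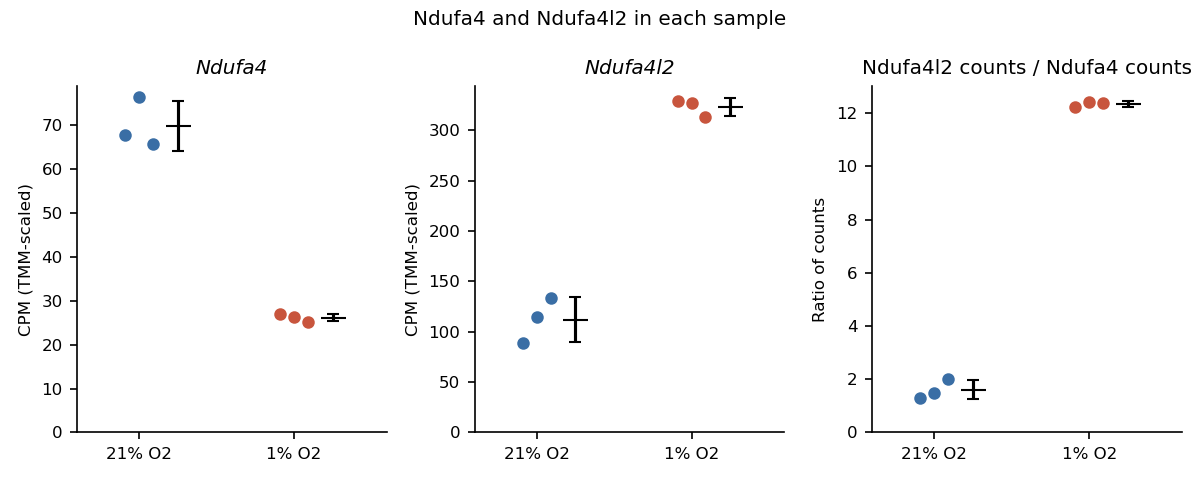
Ndufa4 CPM (left), Ndufa4l2 CPM (middle) and the ratio of their counts (right) in each sample at 21% O2 (blue) and 1% O2 (red), with mean and SD of 3 samples beside the points. Ndufa4 fell to between 25.2 and 26.9 CPM, Ndufa4l2 rose to between 313 and 329 CPM, and the ratio lay between 12.2 and 12.4 in the hypoxic samples.

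The ratio of the pair combines both changes. Ndufa4l2 had 1.31, 1.5 and 2.03 counts for each count of Ndufa4 in normoxia replicates 1, 2 and 3. In the hypoxic replicates it had 12.2, 12.4 and 12.4. The hypoxic ratios were nearly equal, and the highest normoxic ratio was far below them. Per kilobase of exon, which allows the levels of both genes to be compared, the ratios were 1.65, 1.89 and 2.55 in normoxia and 15.4, 15.7 and 15.6 in hypoxia. The mean log2 ratio differed by 2.96 between the conditions, a 7.80-fold difference, with a two-sided exact permutation p of 0.1, the smallest that 3 samples against 3 can give. The sum of both genes was not constant, at 156, 191 and 199 CPM in normoxia and 356, 354 and 338 CPM in hypoxia. Ndufa4l2 shares 32 exonic bases with Shmt2 on the opposite strand, a gene of serine metabolism that was at 80.2 CPM in normoxia and 77.9 CPM in hypoxia (log2 fold change -0.04, not called). The strand setting of the counting is not given in the sources used here, and 17 nuclear-encoded members share exonic bases with a gene on the opposite strand. So do mt-Nd5 and mt-Nd6, which lie on opposite strands and share 14 bases.

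The nuclear-encoded catalytic core splits into the N module (Ndufv1, Ndufv2, Ndufs1) and the Q module, with Ndufs3, Ndufs7 and Ndufs8. All 7 had an adjusted p under 0.05 and a negative fold change, and 4 of them were called lower (3 without normoxia replicate 2). With the exon length correction 6 had such an adjusted p, Ndufs7 being lost (log2 fold change -0.13, adjusted p = 0.119), and 3 were called lower. Ndufv1 binds NADH and the flavin that takes its electrons, and was at 94.3, 108 and 93.2 CPM in normoxia and at 66.2, 64.2 and 64.8 CPM in hypoxia (log2 fold change -0.60, SE 0.07, adjusted p = 5.68e-05). Ndufv2, an iron-sulfur partner of Ndufv1, was at 62.6, 72.1 and 59.8 CPM in normoxia and at 39.9, 39.0 and 38.1 CPM in hypoxia (-0.74, SE 0.07, adjusted p = 3.31e-05). The N module subunit that carries the next clusters, Ndufs1, was at 112, 123 and 104 CPM in normoxia and at 66.7, 64.5 and 66.5 CPM in hypoxia (-0.78, SE 0.07, adjusted p = 1.27e-05). In each of the 3 genes normoxia replicate 2 was highest and no hypoxic sample reached a normoxic one.

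In the Q module the core genes were spread more widely. Ndufs8, an iron-sulfur subunit that links the peripheral arm to the membrane arm, was at 38.3, 44.2 and 37.4 CPM in normoxia and at 20.4, 19.0 and 22.3 CPM in hypoxia, a log2 fold change of -0.96 (SE 0.09, adjusted p = 1.78e-05). Ndufs7 and Ndufs3 changed by less than 1.5-fold and were not called. Ndufs7, which carries the last iron-sulfur cluster before ubiquinone, was at 44.5, 48.6 and 43.0 CPM in normoxia and at 38.2, 38.4 and 34.4 CPM in hypoxia (-0.29, SE 0.07, adjusted p = 0.00523). Ndufs3, a further core subunit of this module, was at 63.8, 73.5 and 68.2 CPM in normoxia and at 52.5, 56.3 and 55.3 CPM in hypoxia (-0.32, SE 0.06, adjusted p = 0.00196). In both of these genes the highest hypoxic sample was still under the lowest normoxic one.

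Accessory subunits were called lower in 16 of 29 genes (13 without normoxia replicate 2) and higher in none, with a median log2 fold change of -0.62, beside -0.60 for the 7 core genes. With the exon length correction 4 of 29 were called lower, near the 13.2% of all tested genes in that fit, with a median of -0.40. Taken by module, with core and accessory genes together, 5 of 8 nuclear-encoded genes of the N module were called lower (median -0.62) and 2 of 8 of the Q module (median -0.36). In the membrane arm, the counts were 3 of 4 in the part around mt-Nd1 (median -0.61), 3 of 5 around mt-Nd2 (-0.70), 3 of 5 around mt-Nd4 (-0.64) and 4 of 6 around mt-Nd5 (-0.74). The Q module had the smallest median change of the 6 groups here, with the exon length correction (-0.23) and without normoxia replicate 2 (-0.30). Its share of calls was not the smallest with the length correction, when it had 1 of 8 called lower and the parts around mt-Nd1 and mt-Nd2 had 0. That correction left 2 of 8 in the N module, 2 of 5 around mt-Nd4 and 2 of 6 around mt-Nd5. Without normoxia replicate 2 the part around mt-Nd1 had 1 of 4, the same share as the 2 of 8 of the Q module. The difference between modules was not tested.

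Ndufb6, an accessory subunit of the distal membrane arm, had, with Ndufs8, the lowest fold change of the nuclear-encoded subunits. With the exon length correction it was at -0.61, and Ndufb2 (-0.93), Ndufs1 (-0.84), Ndufb8 (-0.74) and Ndufs8 (-0.73) were among the genes below it. Ndufb6 was at 37.5, 48.3 and 42.1 CPM in normoxia and at 21.7, 22.1 and 22.0 CPM in hypoxia (log2 fold change -0.96, SE 0.09, adjusted p = 2.10e-05). The hypoxic values were almost the same, while the normoxic ones spread. Other membrane arm genes called lower were Ndufb2 (-0.88), Ndufb8 (-0.78), Ndufs5 (-0.77), Ndufb3 (-0.75), Ndufb4 (-0.74), Ndufa13 (-0.73), Ndufb9 (-0.72), Ndufc2 (-0.71), Ndufa11 (-0.70), Ndufb10 (-0.64), Ndufa1 (-0.62) and Ndufa3 (-0.59). Ndufa3 lay at the 1.5-fold limit and was called in 2 of the 6 fits that left out 1 library. In the peripheral arm, Ndufa12 (-0.72), Ndufa5 (-0.67) and Ndufs6 (-0.64) were called lower.

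Among the accessory genes that were not called, Ndufs4, whose loss causes Leigh syndrome, fell just short of the limit (log2 fold change -0.58) and was called in 3 of the 6 fits that left out 1 library. Ndufb11 (-0.56), Ndufb7 (-0.52), Ndufb5 (-0.51), Ndufc1 (-0.50), Ndufa2 (-0.46), Ndufa9 (-0.44), Ndufa10 (-0.41), Ndufa8 (-0.38), Ndufab1 (-0.36) and Ndufa7 (-0.35) had an adjusted p under 0.05 at a smaller fold. Ndufab1 encodes the mitochondrial acyl carrier protein, which also serves fatty acid synthesis. Ndufa6, a Q module subunit, was at 43.0, 43.9 and 43.7 CPM in normoxia and at 38.1, 39.9 and 37.8 CPM in hypoxia (log2 fold change -0.17, SE 0.05, adjusted p = 0.0177). Its values moved little, yet the conditions did not overlap. Leaving out 1 library at a time gave it adjusted p-values up to 0.0665.

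Ndufv3 was the exception among the nuclear-encoded subunits. This small accessory gene of the N module was at 61.9, 69.2 and 62.2 CPM in normoxia and at 72.8, 71.6 and 72.3 CPM in hypoxia. Every hypoxic sample was above every normoxic one, by a narrow margin over normoxia replicate 2. Its mean went from 64.4 ± 4.14 to 72.2 ± 0.589 CPM (SD, n = 3), a log2 fold change of 0.16 (SE 0.06, edgeR adjusted p = 0.0339), under the fold limit. Leaving out 1 library at a time gave adjusted p-values up to 0.127, so this change was not past the threshold in every such fit.

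All 7 mitochondrially encoded subunits were called lower, with a median log2 fold change of -0.87. Leaving out 1 library at a time gave 6 or 7, mt-Nd4l being the one lost, and the exon length correction gave 4, with a median of -0.61. They are made from long precursor RNAs that are read from mitochondrial DNA and cut into single messages. Per kilobase, the normoxic level was highest for mt-Nd1, at 1552 CPM per kilobase, and lowest for mt-Nd4l, at 60.3 CPM per kilobase. That lowest place depended on how reads were divided with nuclear copies, described below: with their counts added, mt-Nd4l was at 494 and mt-Nd3 was lowest, at 383 CPM per kilobase. The samples varied more than for the nuclear genes: the median SD of log2 CPM among normoxic samples was 0.253 over the 7 genes, against 0.118 over the nuclear-encoded subunits.

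mt-Nd1, a core subunit at the ubiquinone entry, was at 1162, 1784 and 1509 CPM in normoxia and at 792, 688 and 830 CPM in hypoxia (log2 fold change -0.95, SE 0.14, adjusted p = 0.000373). mt-Nd5, the most distal proton-pumping subunit, was at 1257, 1710 and 1647 CPM in normoxia and at 906, 719 and 849 CPM in hypoxia (-0.90, SE 0.13, adjusted p = 0.000245). mt-Nd4, the pumping subunit beside it, was at 953, 1298 and 1228 CPM in normoxia and at 718, 588 and 664 CPM in hypoxia (-0.82, SE 0.12, adjusted p = 0.000307). Normoxia replicate 1 was the lowest normoxic sample and hypoxia replicate 2 the lowest of all samples in these genes. mt-Nd2, also a pumping subunit, was at 746, 1139 and 944 CPM in normoxia and at 565, 516 and 602 CPM in hypoxia (-0.75, SE 0.14, adjusted p = 0.00113). mt-Nd6, the one mRNA read from the other strand of mitochondrial DNA, was at 207, 281 and 281 CPM in normoxia and at 158, 113 and 150 CPM in hypoxia (-0.87, SE 0.15, adjusted p = 0.000757). For both genes, too, no hypoxic sample reached a normoxic one.

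**Figure D3:**
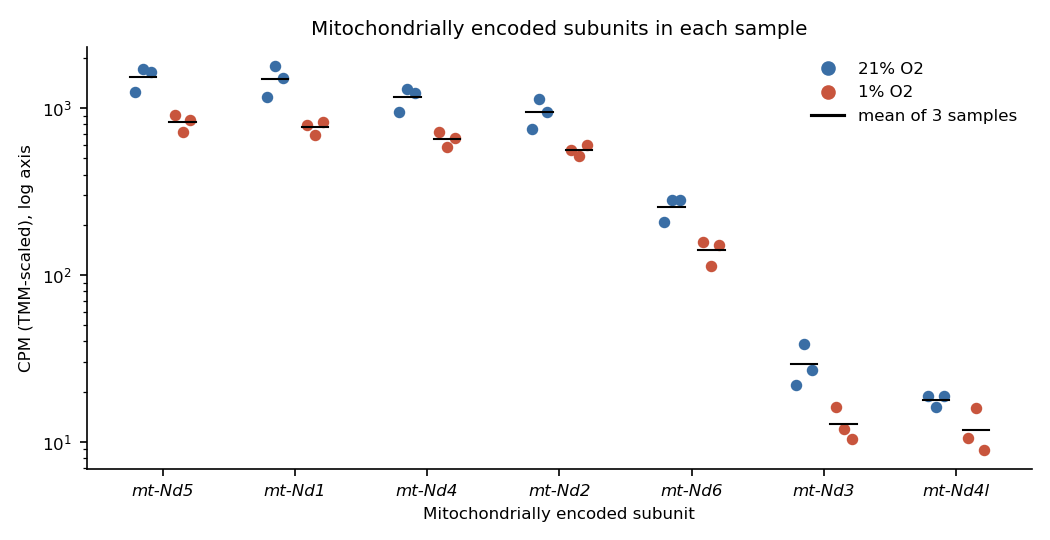
CPM (y axis, log scale) of the 7 mitochondrially encoded complex I genes in each sample at 21% O2 (blue) and 1% O2 (red), with black lines for the mean of 3 samples. The conditions do not overlap in any gene, and in mt-Nd4l the highest hypoxic value, 15.8 CPM, lies just under the lowest normoxic value, 16.1 CPM.

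The shortest of these genes, mt-Nd3 and mt-Nd4l, had the fewest counts. mt-Nd3 (chromosome M, 9459 to 9806) was at 21.9, 38.7 and 27.0 CPM in normoxia and at 16.2, 11.9 and 10.4 CPM in hypoxia (log2 fold change -1.19, SE 0.22, adjusted p = 0.00116). mt-Nd4l (chromosome M, 9877 to 10173) was at 18.8, 16.1 and 18.8 CPM in normoxia and at 10.6, 15.8 and 8.95 CPM in hypoxia (-0.60, SE 0.19, adjusted p = 0.0188), and it was called in 2 of the 6 fits that left out 1 library. Both have near-identical copies in the nuclear genome, annotated as pseudogenes, and RSEM divides reads that match both places by an estimate. Gm28438 matched 345 bases of mt-Nd3 with 1 mismatch and held 76.5% of the counts of the pair. Gm10222 matched 294 bases of mt-Nd4l with 0 mismatches and held 86.2% of the counts of that pair. With the copies added, the log2 fold change was -1.54 for mt-Nd3 and -1.04 for mt-Nd4l, and both were called lower. The start of mt-Nd3 (GENCODE M21 transcript on GRCm38, chrM:9459-9491, plus strand) is shown with the copy, since the base in capitals, T3C counted from the first base of mt-Nd3, is the one difference over the 345 aligned bases.
mt-Nd3: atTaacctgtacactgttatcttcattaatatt
Gm28438: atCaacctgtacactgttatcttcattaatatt

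Among the other members, a copy held a large share for Ndufb4. Its processed pseudogene Ndufb4c held 65.0% of the counts of that pair, and the log2 fold change of Ndufb4 went from -0.74 to -0.79 with the copy added. For the remaining 10 of the 13 members with such copies the share was between 0.0728% and 9.83%. Adding all copies left 32 members called lower. Ndufb1-ps, the mouse counterpart of a further accessory subunit, is annotated as a long noncoding RNA and so was no member. It went from 17.0 to 11.7 CPM (log2 fold change -0.54, not called).

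Assembly factors were called lower in 4 of 8 genes (3 without normoxia replicate 2), with a median log2 fold change of -0.49. Ndufaf5, which hydroxylates an arginine of Ndufs7, changed most. It was at 6.73, 6.67 and 5.47 CPM in normoxia and at 2.98, 2.74 and 3.01 CPM in hypoxia (log2 fold change -1.11, SE 0.15, adjusted p = 0.000162). The hypoxic samples were close together and well under the normoxic ones. Ndufaf6, needed early in assembly, fell by 0.78 (SE 0.19), Ndufaf2, which acts when the N module is added, by 0.71 (SE 0.10), and Ndufaf7, a methyltransferase, by 0.63 (SE 0.09). Ndufaf4 (-0.36) and Ndufaf1 (-0.34) passed the adjusted p at a smaller fold. Leaving out 1 library at a time gave adjusted p-values up to 0.109 for Ndufaf4 and up to 0.106 for Ndufaf1, and without normoxia replicate 2 the log2 fold change of Ndufaf4 was -0.20.

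Ndufaf8 and Ndufaf3 were the members whose conditions overlapped. Ndufaf8, the partner of Ndufaf5, was at 8.77, 9.97 and 9.45 CPM in normoxia and at 7.42, 8.80 and 8.26 CPM in hypoxia (log2 fold change -0.20, SE 0.11, adjusted p = 0.133). With the exon length correction its sign turned, at 0.11. Ndufaf3, an early assembly factor that works with Ndufaf4, was at 8.85, 10.3 and 9.57 CPM in normoxia and at 8.20, 9.57 and 7.91 CPM in hypoxia (-0.16, SE 0.11, adjusted p = 0.248). The difference between Ndufaf5 and Ndufaf8 was not tested.

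Of 12 assembly factors with other symbols, 2 were called lower and 0 higher, a share near the 15.3% of all tested genes called lower, with a median log2 fold change of -0.28. The called genes were Tmem70 (-0.65), which acts in the assembly of complexes I and V, and Aifm1 (-0.61), which brings proteins into the intermembrane space. Dmac2 was the highest, at 0.49, and was not called at the fold limit.

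The promoters of 40 members were found in the RefSeq table on GRCm38.p6, as 42 windows from 250 bases before to 50 bases after a start. Ndufa4l2 and the mitochondrially encoded genes are among the 13 members without an entry. Letters of 5 motifs were searched on both strands: ACGTG, the core of the hypoxia response element; GCGCATG, part of the NRF1 site; CCGGAAG, of ETS factors such as GABP; AAGGTCA, of estrogen-related receptors; and AAGATGG, of YY1. ACGTG was in 19.0% of the 42 windows and in 19.6% of all 32851 windows. GCGCATG was in 16.7% of the members' windows against 3.91% of all, CCGGAAG in 14.3% against 8.86%, AAGGTCA in 7.14% against 4.72%, and AAGATGG in 19.0% against 6.34%. These are descriptions of letters, and binding of the factors was not measured. Windows of 4 members are printed with matched letters in capitals, because these genes stood at the ends of the range of fold changes. Ndufa4 held none of the 5 motifs. Ndufb6 held CCGGAAG on the minus strand of the window and GCGCATG on the plus strand. Ndufaf5 held GCGCATG on both strands, overlapping, and Ndufv3, the nuclear-encoded subunit with a positive fold change, held ACGTG. Of the 7 members with ACGTG, all others had negative fold changes: Ndufa1 (-0.62), Ndufa3 (-0.59), Ndufa7 (-0.35), Ndufaf3 (-0.16), Ndufb10 (-0.64) and Ndufv1 (-0.60).
Ndufa4 (chr6:11907401-11907700, minus strand): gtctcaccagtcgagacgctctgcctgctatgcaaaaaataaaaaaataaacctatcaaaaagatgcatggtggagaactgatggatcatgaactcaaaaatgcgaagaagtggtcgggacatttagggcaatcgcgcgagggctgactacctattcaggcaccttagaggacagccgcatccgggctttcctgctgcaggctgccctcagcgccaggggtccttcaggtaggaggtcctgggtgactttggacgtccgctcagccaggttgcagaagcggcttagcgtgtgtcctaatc
Ndufb6 (chr4:40279372-40279671, minus strand): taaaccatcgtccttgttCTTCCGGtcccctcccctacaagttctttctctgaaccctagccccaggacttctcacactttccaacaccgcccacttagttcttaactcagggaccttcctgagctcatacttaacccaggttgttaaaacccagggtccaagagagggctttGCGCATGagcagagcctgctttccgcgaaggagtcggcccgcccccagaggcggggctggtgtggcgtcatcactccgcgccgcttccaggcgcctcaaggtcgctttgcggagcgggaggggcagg
Ndufaf5 (chr2:140170396-140170695, plus strand): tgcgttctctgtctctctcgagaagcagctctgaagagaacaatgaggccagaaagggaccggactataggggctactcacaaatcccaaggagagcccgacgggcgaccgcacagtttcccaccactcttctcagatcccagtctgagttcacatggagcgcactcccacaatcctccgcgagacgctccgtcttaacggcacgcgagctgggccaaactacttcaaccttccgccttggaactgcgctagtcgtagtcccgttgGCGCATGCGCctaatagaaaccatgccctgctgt
Ndufv3 (chr17:31519865-31520164, plus strand): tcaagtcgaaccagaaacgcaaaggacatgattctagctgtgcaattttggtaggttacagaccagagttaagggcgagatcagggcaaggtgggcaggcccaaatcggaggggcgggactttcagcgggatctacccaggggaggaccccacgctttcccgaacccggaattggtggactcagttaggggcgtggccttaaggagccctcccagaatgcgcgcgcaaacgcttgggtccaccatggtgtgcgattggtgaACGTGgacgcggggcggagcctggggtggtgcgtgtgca

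Summed over genes, the mitochondrially encoded subunits differed most between the conditions. Their summed level was 4366, 6267 and 5656 CPM in normoxia and 3166, 2650 and 3115 CPM in hypoxia, 45.2% lower at 1% O2. The nuclear-encoded subunits together stood at 1801, 2054 and 1790 CPM in normoxia and at 1307, 1301 and 1289 CPM in hypoxia, 31% lower. The Ndufaf assembly factors together stood at 86.4, 99.6 and 85.2 CPM in normoxia and at 62.9, 66.1 and 65.3 CPM in hypoxia, 28.3% lower. None of the 3 sums overlapped between conditions, and normoxia replicate 2 was highest in each. The ratio of mitochondrial to nuclear subunit counts was 2.42, 3.05 and 3.16 in normoxia and 2.42, 2.04 and 2.42 in hypoxia. Every hypoxic ratio was below every normoxic one, but normoxia replicate 1 and hypoxia replicate 1 were equal to the digits given.

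**Figure D4:**
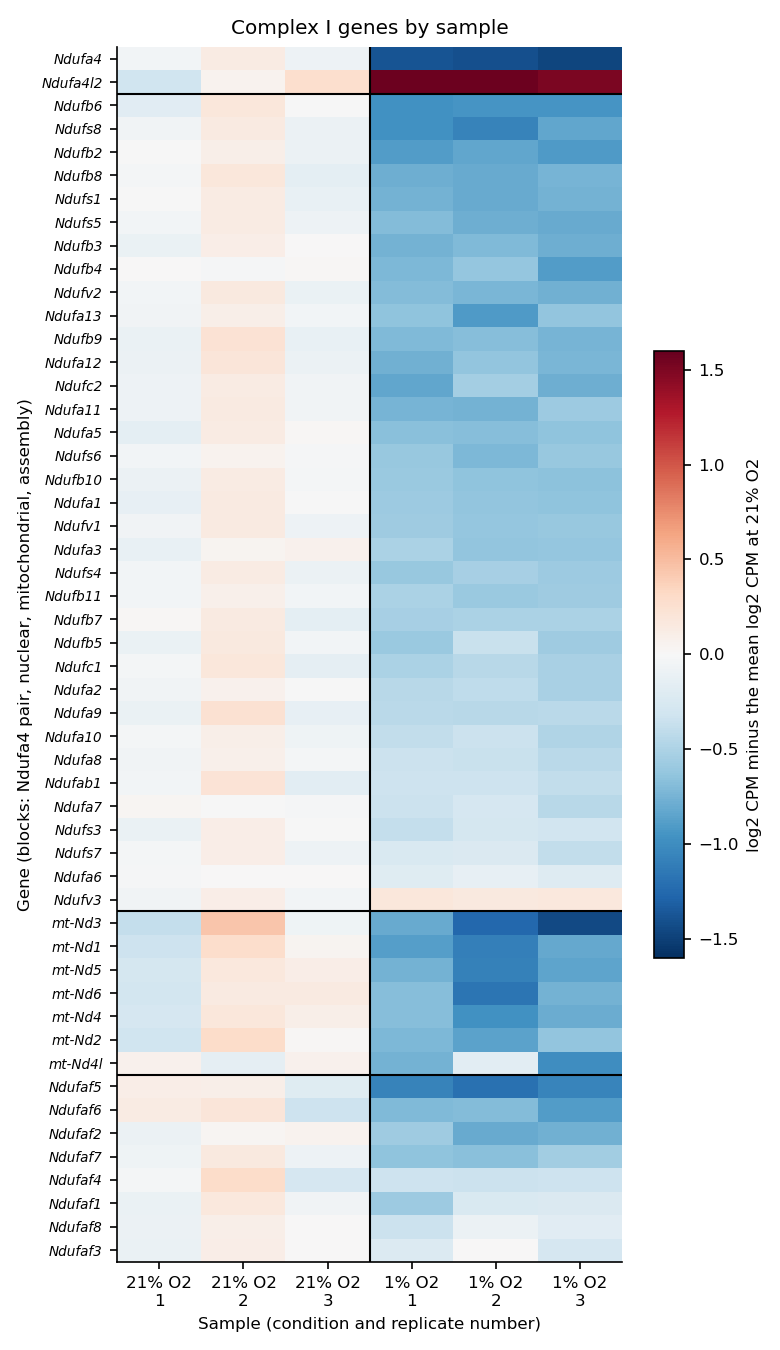
Log2 CPM of complex I genes in each of the 6 samples, as the difference from the gene's mean log2 CPM at 21% O2 (blue lower, red higher), in blocks for the Ndufa4 pair, nuclear-encoded subunits, mitochondrially encoded subunits and assembly factors. The hypoxic columns are blue in nearly all genes shown, with Ndufa4l2 and Ndufv3 red and Ndufaf3 at about the normoxic mean in hypoxia replicate 2, and the column of normoxia replicate 2 is the highest normoxic one for most genes.

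The spread among replicates was narrower in hypoxia. The median SD of log2 CPM over the 36 nuclear-encoded subunits was 0.118 among normoxic and 0.0411 among hypoxic samples, while over all tested genes it was 0.127 and 0.1. The normoxic value included replicate 2, which was highest for 33 of the 36 genes.

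Other messages of the respiratory chain were lower as well. Of 6 mitochondrially encoded mRNAs outside complex I, 5 were called lower (median log2 fold change -1.0), from mt-Atp8, an ATP synthase subunit, at -1.50, to mt-Co1, a catalytic subunit of complex IV, at -0.48, which was not called. The mt-Nd genes held between 47.6% and 47.7% of the counts of all 13 mitochondrial mRNAs in the normoxic samples and between 43.1% and 44.6% in the hypoxic samples, so their share was lower in each hypoxic sample. Most of the counts outside complex I were of mt-Co1, which changed least: it went from 3563 to 2547 CPM, and all 6 together from 5973 to 3787 CPM. By the median, the 6 mRNAs fell more (-1.0) than the mt-Nd genes (-0.87). The share without mt-Co1 was not computed. Among nuclear-encoded genes, 2 of 4 were called lower in complex II (median -0.62), 6 of 9 in complex III (-0.66, 3 of 9 without normoxia replicate 2), 8 of 15 in complex IV (-0.65) and 11 of 16 in complex V (-0.74). Of the nuclear-encoded complex I subunits, 20 of 36 were called lower (16 without normoxia replicate 2), with a median of -0.61. With the exon length correction 7 of 36 were, with a median of -0.41, while 13.2% of all tested genes were called lower in that fit. It gave 2 of 4 in complex II (median -0.60), 3 of 9 in complex III (-0.57), 2 of 15 in complex IV (-0.36) and 10 of 16 in complex V (-0.67). The share in complex IV was then near that of all tested genes. The range ran from Sdhb (-0.86) to Sdhc (-0.55) in complex II and from Uqcr11 (-0.98) to Uqcrh (-0.27) in complex III. In complex V it ran from Atp5b (-0.92) to Atp5g2 (-0.24). Complex IV was taken by Cox symbols alone, and Cox5a was the lowest of these (-0.99). Ndufa4 (-1.42), whose protein is now counted to complex IV, was left out of its counts. Among these 4 complexes, genes called higher occurred only in complex IV, where Cox4i2, the hypoxic form of subunit 4, rose by 2.70 on the log2 scale and Cox7a1 by 1.04. Cox4i1, the common form of subunit 4, was at -0.40 and not called.

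**Figure D5:**
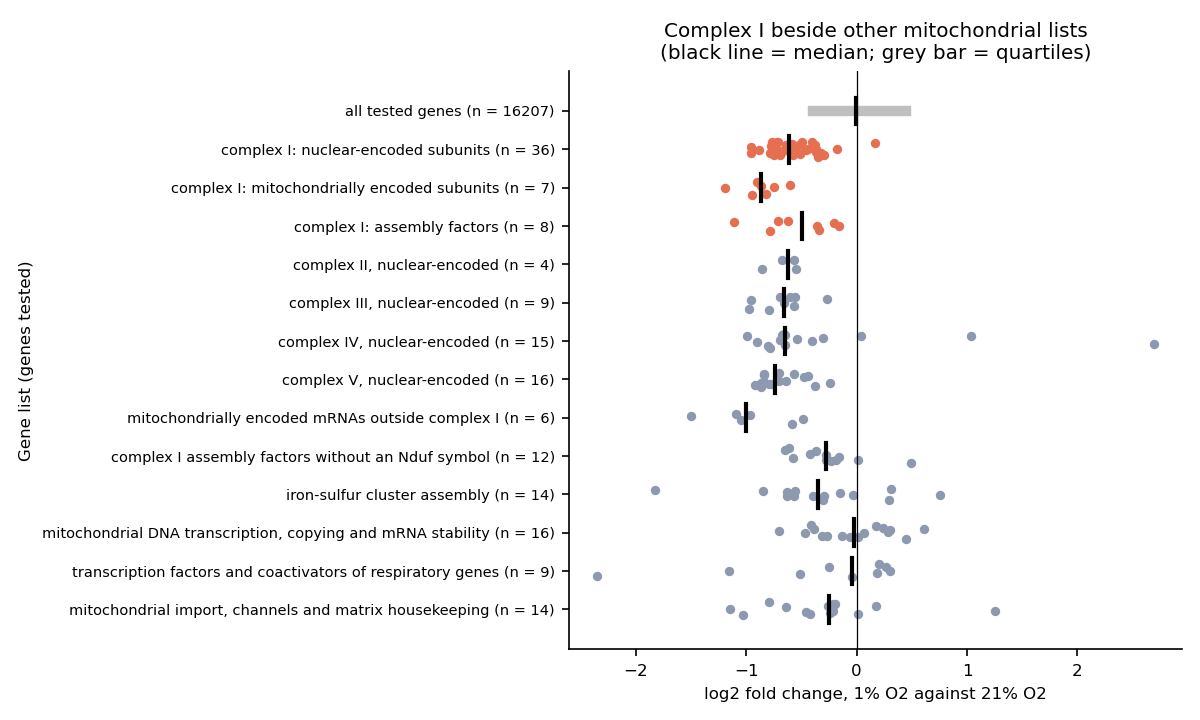
Log2 fold change at 1% O2 against 21% O2 (x axis) of the genes in each list (points; complex I classes in orange, other lists in grey), with a black line at each median and a grey bar from the lower to the upper quartile of all tested genes. The medians of the nuclear-encoded subunits of complexes I to V lie between -0.74 and -0.61, and the medians of the lists for mitochondrial DNA expression and for transcription factors lie at -0.02 and -0.04, with genes on both sides of 0.

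Of 16 genes that read, copy or stabilize mitochondrial DNA and its messages, 1 was called lower and 1 higher, and 4 were lower and 4 higher by the adjusted p at any fold, with a median log2 fold change of -0.02. Tfam, which packages mitochondrial DNA and starts its transcription, was at 26.7 CPM in normoxia and 26.9 CPM in hypoxia (0.01, adjusted p = 0.904). Lrpprc, which stabilizes mitochondrial mRNAs, was at 50.4 and 38.4 CPM (-0.39, adjusted p = 0.000554, not called at the fold limit). The gene called lower was Hsd17b10 (-0.71), a part of mitochondrial RNase P, and the one called higher was Twnk (0.61), the mitochondrial DNA helicase.

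Of 9 transcription factors and coactivators of respiratory genes, 2 were called lower and 0 higher, and 4 were lower and 4 higher by the adjusted p at any fold, with a median of -0.04. Both called genes encode PGC-1 coactivators. Ppargc1b went from 5.68 to 1.12 CPM (log2 fold change -2.35, SE 0.23, adjusted p = 2.47e-05) and Ppargc1a from 5.81 to 2.61 CPM (-1.16, SE 0.16, adjusted p = 0.000267). Yy1 was the highest of the list, at 0.30.

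In iron-sulfur cluster assembly, on which the electron path of complex I depends, 4 of 14 genes were called lower and 1 higher (median log2 fold change -0.35). Fdxr, the reductase that feeds electrons to the pathway and to steroid synthesis, fell most, from 105 to 29.6 CPM (-1.83). Iba57, a late-acting assembly gene, rose by 0.75. Iscu, the scaffold and a known target of a hypoxia-induced microRNA, went from 73.2 to 59.7 CPM (-0.29, adjusted p = 0.00173, not called at the fold limit). Of 14 genes for mitochondrial import, channels and the matrix, 4 were called lower and 1 higher (median -0.25). Cycs, cytochrome c, was the lowest (-1.15), and Vdac1, the main channel of the outer membrane, was the highest (1.25).

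Markers of other cell types moved in part with the conditions. The summed level of 10 fibroblast or stellate cell markers lay between 28065 and 35207 CPM in normoxia and between 30275 and 35063 CPM in hypoxia, and 1 was called lower and 2 higher, from Lum (log2 fold change -2.17) to Pdpn (0.99). The 9 macrophage markers summed to between 809 and 1416 CPM in normoxia and between 422 and 737 CPM in hypoxia, with 5 called lower and none at 0. The markers called lower were Tyrobp (log2 fold change -1.35), Fcer1g (-1.14), Lyz2 (-1.12), Adgre1 (-1.05) and Cd68 (-1.01), and Lyz2 made up most of the sum, at 899 and 413 CPM. Ptprc (-0.59), Csf1r (-0.24), Itgam (-0.0015) and Cd14 (0.08) were not called. Normoxia replicate 2 had the highest macrophage sum as well as the highest complex I sums. The 6 epithelial markers summed to between 0.834 and 2.19 CPM in normoxia and between 21.0 and 24.7 CPM in hypoxia. Of these, Krt19 was called higher, from 0.714 to 22.1 CPM, Krt7 was not called (-0.23), and Epcam and Krt8 had 0 counts in each hypoxic sample. The 4 endothelial markers, with Kdr called lower (-0.76) and Tek higher (1.16), summed to between 8.61 and 13.3 CPM in normoxia and between 13.7 and 19.8 CPM in hypoxia. Of 5 acinar markers only Cela1 passed the filter, at 11.0 and 8.72 CPM, and Cpa1, Amy2a5 and Ptf1a had 0 counts in every sample. The part of other cells in the complex I values was not tested.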

How the data were processed

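Adapters were trimmed, reads of poly(A) libraries were mapped to GRCm38 with STAR 2.6.1b and assigned to genes with RSEM 1.3.1 by the authors, who deposited expected counts for 55426 features in 6 samples, 5 of them transgenes that were left out. The deposited expected counts were whole numbers. The annotation release is not given in the sources used here. GENCODE M21 held 55240 of the identifiers and lacked 186. Groups and replicate numbers came from the labels.

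Genes were filtered with filterByExpr, scaled by TMM and tested with edgeR 4.0.16 (quasi-likelihood F test, limma 3.58.1, R 4.3.3). SE is the log2 fold change divided by the square root of F. 3 counts, the smallest amount taken as told from none, equal 0.0942 to 0.122 CPM and cover counting error only. Replicates differed by a chi-square of 5.68 to 22.5 per degree of freedom over genes, more than sampling noise. Alternatives were a replicate block, other scalings, filters and thresholds, DESeq2 1.42.0, limma-voom, exon length and GC corrections, and each library left out. Tests were checked on simulated data. Near-identical copies (95% identity over 150 bases) were found with BLAST 2.17.0, and adding them was chosen after the data were seen, as was the block for summed levels.

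Values per sample were given for Ndufa4, Ndufa4l2, the mt-Nd genes, the nuclear core subunits and the 5 highest and 5 lowest fold changes; outside the members, the highest and lowest gene of a list and Pdk1, Cox4i1, Cox4i2, Tfam, Lrpprc, Ppargc1a and Iscu were named. Further genes named with values (Shmt2, Aifm1, Cox7a1, macrophage markers, Epcam, Krt8, acinar markers and pseudogenes) were chosen after their values were seen. The members and lists were chosen with earlier results of these data known. One member, counted in the totals, is not reported here by name.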

Additional observations from a re-analysis of the deposited data

How the results depend on the processing

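Ndufa4 and Ndufa4l2 kept their calls in every fit run. The count of members called lower was 15 with the exon length correction, with or without the replicate block (nuclear-encoded 7, mitochondrially encoded 4), and Ndufaf8 then turned to 0.11 in both. Without a fold limit, 49 members were lower and 2 higher (nuclear-encoded 35 lower). At a fold over 2, 3 were lower, against 7.57% of all tested genes (nuclear-encoded 0, mitochondrially encoded 1, assembly factors 1). Leaving out each library gave 27 to 33 members lower, 16 to 22 nuclear-encoded, 6 to 7 mitochondrially encoded and 3 to 4 assembly factors. Other scalings, no low-count filter, DESeq2, limma-voom and the GC correction gave 31 to 33, and the GC correction with the replicate block gave 30. The same replicate numbers occur in both conditions, and same-numbered samples correlated at 0.22, 0.19 and 0.05 in their deviations, so the numbers were not taken as a pairing, although each of the 6 samples correlated best with its own number. With the replicate block in edgeR 32 were lower and 1 higher, and it changed no call of a member. The log2 ratio of Ndufa4l2 to Ndufa4 differed by 3.22, 3.05 and 2.61 within replicate numbers 1, 2 and 3 of the block. The cause of the length dependence was not tested. Limits of depth were not compared between members, of which Ndufaf6 had the lowest hypoxic mean, at 2.38 CPM.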
